A study of Mus musculus with 12 samples.

Results

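The Reg genes encode small secreted proteins with a C-type lectin fold that epithelial cells release into the gut lumen. Reg3g and Reg3b are bactericidal lectins that help to keep bacteria away from the mucosal surface, and their transcription in the epithelium is induced by microbial signals and by interleukin-22 acting through STAT3. Reg1 is the pancreatic stone protein, which is also made in the intestine, Reg3a is a further lectin of the family, and Reg4 is a more distant member known from secretory cells of the crypt. The 5 genes Reg1, Reg3a, Reg3b, Reg3g and Reg4 are described here, out of 54232 genes in the table. They were taken by name from the Reg family, which has 7 genes in the table. All 5 passed the filter on low counts. Reg2 never exceeded 1 count in a library and Reg3d never exceeded 3, so neither was tested.

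The libraries were made by 3′ RNA sequencing of small intestinal stem cells (ISCs) from single female mice, in 4 groups of 3. SM6 young and SM6 old came from wild-type C57/Bl6 mice aged 2 and 22 months, whose ISCs were sorted by surface markers. Lgr5-GFP young and Lgr5-GFP old came from mice of the same ages carrying Lgr5-EGFP-IRES-CreERT (the recombinase is CreERT2 in the methods of the study), an allele that places a fluorescent reporter and an inducible recombinase under the control of the stem cell gene Lgr5. Strain and isolation changed together, so their effects cannot be told apart. The sorting protocol in the labels gives the surface markers for all libraries, while a supplementary legend of the study gives fluorescence for the reporter mice, and the names are used here only as the titles give them.

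Library totals ran from 970472 to 3815425 counts, and all 12 stem cell markers on the list were detected in every group. Their summed level was 13299 to 16478 CPM (counts scaled to a common library total by TMM) in SM6 young, 8467 to 9630 in SM6 old, 12996 to 14818 in Lgr5-GFP young and 11122 to 12812 in Lgr5-GFP old, so that old libraries lay below young ones in both isolations. Of the 12 markers, Olfm4, Sox9 and Znrf3 were lower in SM6 old than in SM6 young at an adjusted p under 0.05 (edgeR quasi-likelihood test). Markers of other epithelial cells were detected as well. The 12 Paneth cell markers summed to 10791 to 68279 CPM in SM6 young, 44505 to 276791 in SM6 old, 43729 to 249155 in Lgr5-GFP young and only 18291 to 31152 in Lgr5-GFP old. SM6 old library 3 and Lgr5-GFP young library 1 were the highest. The 8 goblet cell markers lay at 5712 to 9134, 17322 to 18248, 5304 to 13753 and 3159 to 5504 CPM in the same order, the 11 enterocyte markers at 1912 to 2074, 2659 to 9462, 1795 to 3096 and 2069 to 11908 CPM, and the 11 enteroendocrine markers at 699.6 to 1288, 941 to 3076, 118 to 261 and 61.7 to 151 CPM. One Paneth marker was at 0 throughout SM6 young, 1 enteroendocrine marker was at 0 throughout each group except SM6 old, and no goblet or enterocyte marker was at 0 in a whole group. Immune cell markers summed to at most 6.62 CPM in any library. In bulk libraries, fewer cells of a type and less RNA per cell cannot be told apart.

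Most of the genes lie in a cluster on chromosome 6 and 1 stands alone. The 6 clustered Reg genes span chr6:78370657-78468872 of GRCm38, a stretch of 98216 bases. Within it are Reg3b (ENSMUSG00000071356, chr6:78370657-78373466, plus strand), Reg3a (ENSMUSG00000079516, chr6:78380709-78383827, plus strand), Reg1 (ENSMUSG00000059654, chr6:78422711-78428667, plus strand) and Reg3g (ENSMUSG00000030017, chr6:78466269-78468872, minus strand). Reg4 (ENSMUSG00000027876) lies at chr3:98222156-98236748 on the plus strand. Reads of the members should rarely be mistaken for each other, since no 72-base window of their transcripts came within 3 mismatches of another Reg gene.

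The promoters of Reg3b and Reg3g are shown because these genes had the most similar levels across the libraries, with that of Reg4 as the member outside the cluster. The windows are 125 bases long and end 20 bases before the RefSeq start site in the strand of the gene. They were taken from the RefSeq promoter table (GRCm38.p6), in which all 5 members were found. The Reg3b window lies in the first intron of a longer annotated transcript, except for its last bases, which GENCODE places in an exon of the shorter one. Capitals mark matches on either strand to 5 motifs that were chosen after the sequences had been seen and do not overlap here.
Reg3b, chr6:78370741-78370865, plus strand: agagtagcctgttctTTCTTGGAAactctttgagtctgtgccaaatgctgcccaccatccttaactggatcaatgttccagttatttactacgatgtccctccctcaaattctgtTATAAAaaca
Reg3g, chr6:78468894-78469018, minus strand: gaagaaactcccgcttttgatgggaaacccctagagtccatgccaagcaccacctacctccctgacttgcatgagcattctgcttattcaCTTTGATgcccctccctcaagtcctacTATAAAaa
Reg4, chr3:98222012-98222136, plus strand: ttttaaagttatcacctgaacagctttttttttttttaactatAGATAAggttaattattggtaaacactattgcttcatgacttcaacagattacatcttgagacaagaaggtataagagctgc

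The Reg3b and Reg3g windows were identical at 81 of 127 aligned positions, or 63.8%, whereas the other 9 pairs of members lay between 42.2% and 50.0%. Both held a match to the TATA box (TATAAA), at -29 to -24 in Reg3b and -27 to -22 in Reg3g, which 6.77% of 32851 promoter windows of this length held. A match to the STAT motif (TTCNNNGAA) was found in Reg3b alone among the 5 members, at -129 to -121 (3.34% of all windows). A match to the TCF/LEF motif (CTTTGAT) was found in Reg3g alone, at -54 to -48 (1.54% of all windows). Reg4 held a match to the GATA motif (AGATAA) at -101 to -96 (4.92% of all windows). Of the windows not printed, Reg1 held a TATA box and a match to the AP-1 motif (TGANTCA) at -117 to -111 (3.67% of all windows), and Reg3a held none of the 5. The matches are descriptions of the letters and were not tested for binding.

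Together the 5 genes took a small share of the counts, which was higher in old than in young libraries of SM6 and lower in those of Lgr5-GFP. In SM6 their share was 0.0471% to 0.086% at 2 months and 0.0972% to 0.191% at 22 months, and in Lgr5-GFP it was 0.182% to 0.275% at 2 months and 0.0364% to 0.0862% at 22 months. The young and old libraries did not overlap in either isolation. The lowest share, in Lgr5-GFP old library 1, had a 95% Wilson interval of 0.0333% to 0.0397%. The highest, in Lgr5-GFP young library 1, had one of 0.270% to 0.280%. These intervals cover at most counting error.

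Which gene supplied these counts differed between libraries. Reg3b and Reg3g each supplied between 18.5% and 49.6% of the Reg counts in every library, without correction for length. Reg4 ranged from 7.21% in Lgr5-GFP young library 3 to 49.2% in SM6 old library 2. Reg1 supplied 1.53% to 23.9%, and Reg3a at most 2.51%. Per kilobase of exon, the group mean of Reg3b was highest in Lgr5-GFP young at 716 CPM per kb, against 453 for Reg3g, 496 for Reg4, 85.6 for Reg1 and 7.90 for Reg3a in the same libraries. The exons of Reg3g include those of a transcript with a retained intron, which lowers its value on this scale.

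**Figure D1:**
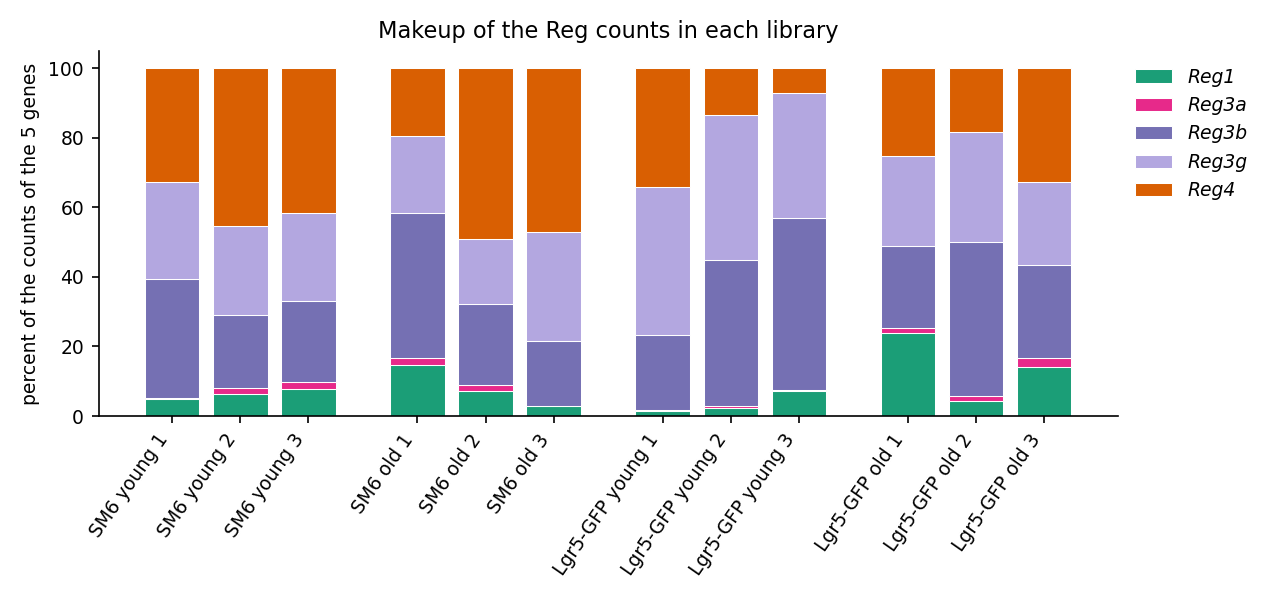
Share (percent, y axis) of the summed counts of the 5 Reg genes that each gene supplied in each of the 12 libraries (x axis), without correction for length. Reg3b and Reg3g made up a large part of every bar, Reg4 ranged from 7.21% to 49.2%, and Reg3a never exceeded 2.51%.

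Reg3g, the lectin that binds the peptidoglycan of Gram-positive bacteria, was highest in young ISCs of the reporter strain and among the lowest in old ones. It stood at 239, 116 and 141 CPM in SM6 young libraries 1 to 3, at 352, 180.5 and 744 CPM in SM6 old, at 1407, 785 and 679 CPM in Lgr5-GFP young and at 86.0, 251 and 82.9 CPM in Lgr5-GFP old. In Lgr5-GFP every young library lay above every old one, while in SM6 the lowest old library lay below the highest young one. The group means were 957 ± 393 CPM (SD, n = 3) in Lgr5-GFP young, 426 ± 289 in SM6 old, 166 ± 64.9 in SM6 young and 140.1 ± 96.3 for Lgr5-GFP old, and each neighbouring pair in this order overlapped.

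Reg3b, its close relative, had much the same pattern. It stood at 293, 94.8 and 132 CPM in SM6 young, at 658, 227 and 443 CPM in SM6 old, at 713, 799 and 942 CPM in Lgr5-GFP young and at 78.0, 353 and 92.6 CPM in Lgr5-GFP old. All 3 Lgr5-GFP young libraries lay above the other 9, and the remaining groups overlapped with their neighbours. The means were 818 ± 116 CPM in Lgr5-GFP young, 443 ± 216 in SM6 old, 174 ± 155 in Lgr5-GFP old and 173 ± 106 in SM6 young (SD, n = 3).

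Reg4 rested on 1 high library in each of 2 groups. It stood at 283, 207 and 234 CPM in SM6 young, at 306, 480 and 1124 CPM in SM6 old, at 1125, 257 and 137 CPM in Lgr5-GFP young and at 84.0, 147 and 113 CPM in Lgr5-GFP old. The values of 1124 and 1125 CPM came from SM6 old library 3 and Lgr5-GFP young library 1, the libraries with the highest Paneth marker sums. The means were 637 ± 431 CPM (SD, n = 3) for SM6 old, 506 ± 539 for Lgr5-GFP young, 241 ± 38.3 in SM6 young and 115 ± 31.6 in Lgr5-GFP old, and in this order the only neighbours without overlap were SM6 young and Lgr5-GFP old.

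Reg1 was low and had 2 libraries that stood out. It stood at 42.5, 29.4 and 44.1 CPM in SM6 young, at 229.9, 70.6 and 65.5 CPM in SM6 old, at 50.4, 46.3 and 135 CPM in Lgr5-GFP young and at 79.3, 34.2 and 49.2 CPM in Lgr5-GFP old. SM6 old library 1 and Lgr5-GFP young library 3 were the highest, and every SM6 old library lay above every SM6 young one. The means ran from 122 ± 93.5 CPM (SD, n = 3) in SM6 old through 77.4 ± 50.3 in Lgr5-GFP young, then 54.2 ± 23.0 in Lgr5-GFP old, to 38.6 ± 8.07 in SM6 young, with overlap between each neighbouring pair.

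Reg3a was close to the limit of what these depths resolve, with 5 to 40 counts in a library. It stood at 3.03, 7.76 and 10.8 CPM in SM6 young, at 31.2, 17.0 and 5.59 CPM in SM6 old, at 8.51, 5.67 and 5.38 CPM in Lgr5-GFP young and at 5.33, 12.2 and 8.68 CPM in Lgr5-GFP old. All neighbouring groups overlapped. Its means were 17.9 ± 12.8 CPM in SM6 old, 8.74 ± 3.43 in Lgr5-GFP old, 7.21 ± 3.93 in SM6 young and 6.52 ± 1.73 in Lgr5-GFP young (SD, n = 3).

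**Figure D2:**
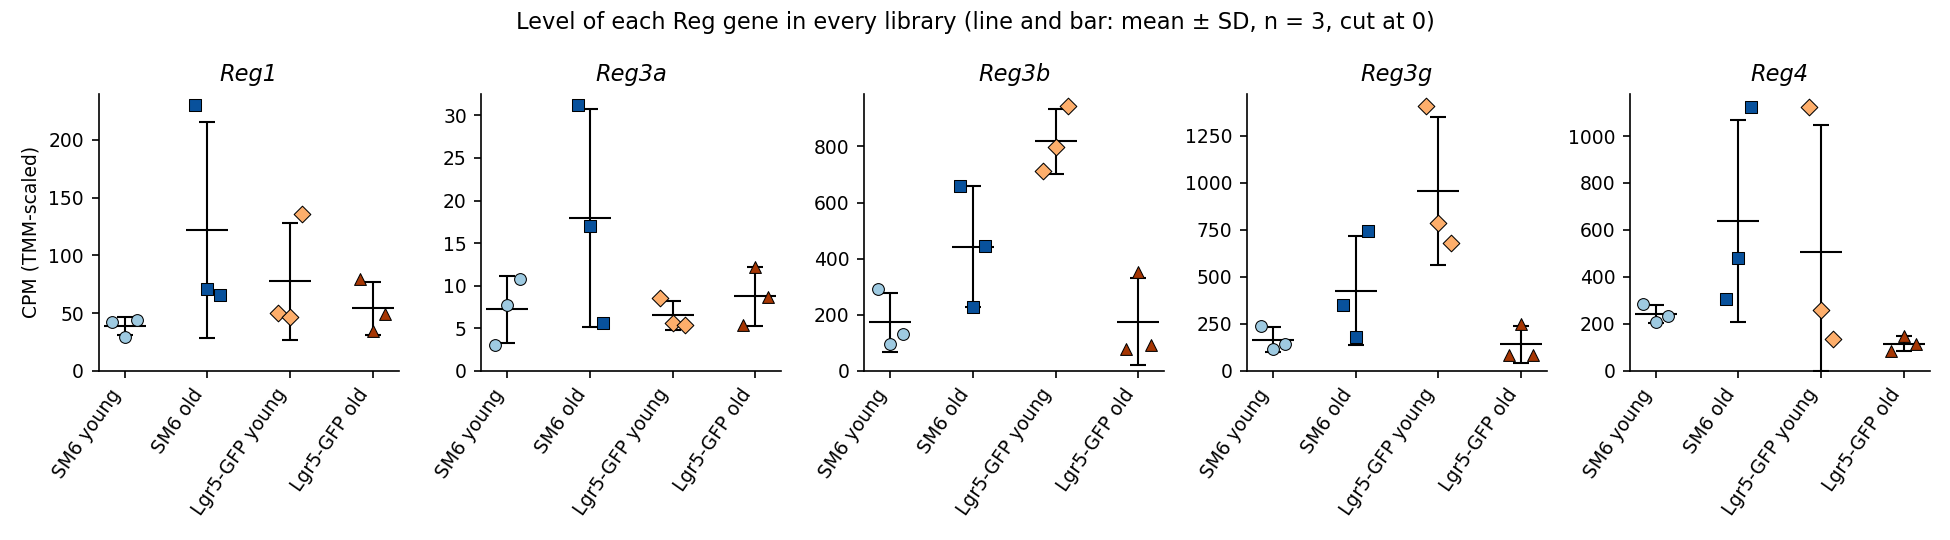
Level of each Reg gene (CPM on TMM-scaled totals, y axis from 0, 1 scale per gene) in every library of the 4 groups (x axis), with 1 point per library and the mean ± SD of 3 libraries, cut at 0. Reg3b and Reg3g were highest in Lgr5-GFP young, and Reg4 reached 1124 and 1125 CPM in 1 library each of SM6 old and Lgr5-GFP young.

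In SM6, old was compared with young, and the 5 genes all had higher fitted means in old ISCs, but the test called Reg1 alone. Reg1 rose 3.16-fold, a log2 change of 1.66 ± 0.42 (SE, edgeR quasi-likelihood test, adjusted p = 0.0327), with 3 old libraries above 3 young ones. The log2 changes of the others were 1.40 ± 0.49 for Reg4 (adjusted p = 0.159), 1.36 ± 0.41 for Reg3g (adjusted p = 0.0854), 1.35 ± 0.43 for Reg3b (adjusted p = 0.111) and 1.32 ± 0.51 for Reg3a (adjusted p = 0.232). So 1 of 5 members was called, where 2.42% of all 13368 genes tested were called. Before adjustment all 5 members had a p under 0.05, as had 13.1% of all genes. The groups did not overlap for Reg1 and Reg4, 2 of 5 members, and for 17.5% of all genes. The median log2 change of the members was 1.36, and that of all genes was -0.01. Markers of other cells were higher in the same libraries. Called higher were 5 of 8 goblet markers (median 1.11), 6 of 11 enterocyte markers (median 1.12) and 2 of 11 Paneth markers (median 1.97). DESeq2 called 2, 4 and 0 of them. Their part in the result was not tested.

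The call of Reg1 was lost without SM6 old library 1, where the log2 change was 0.84 (adjusted p = 0.395), and without any 1 of the SM6 young libraries, at 1.74, 1.49 and 1.76 for libraries 1 to 3 (adjusted p = 0.0721, 0.190 and 0.0829). DESeq2 did not call it either (adjusted p = 0.118). SM6 old library 1 also had the highest enterocyte marker sum of SM6, and with the enterocyte markers as a covariate the log2 change of Reg1 was 1.07 (adjusted p = 0.447). With the Paneth markers as a covariate it was 2.15 (adjusted p = 0.00159). With the goblet markers it was 2.35 and not called (adjusted p = 0.177), in a fit that called 0.015% of all genes. Robust estimation did not call Reg1 (adjusted p = 0.324). The stem cell marker sums, which had r = -0.642 with Reg1 over the 12 libraries (-0.563 within groups), were lower in SM6 old, and their part in the result was not tested.

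In Lgr5-GFP the same comparison went the other way for the bactericidal lectins. Reg3g was 6.84-fold lower in old ISCs, a log2 change of -2.77 ± 0.43 (SE, edgeR quasi-likelihood test, adjusted p = 0.00275), and Reg3b was 4.69-fold lower, a log2 change of -2.23 ± 0.44 (adjusted p = 0.0192). By p-value Reg3g was the 6th and Reg3b the 25th of all genes. Reg4 had a log2 change of -2.16 ± 0.51 that was not called (adjusted p = 0.0563), Reg1 of -0.52 ± 0.41 (adjusted p = 0.758) and Reg3a of 0.36 ± 0.55 (adjusted p = 0.896). The test thus called 2 of 5 members, where it called 0.471% of all genes. The same 2 members were those whose groups did not overlap, as was the case for 14.6% of all genes. The median log2 change was -2.16 over the members and -0.03 over all genes.

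The Paneth marker sums were also lower in old than in young ISCs of the reporter strain, as given above. With these markers as a covariate, the log2 change was -1.77 for Reg3g (adjusted p = 0.0332), -2.07 for Reg3b (adjusted p = 0.0634) and -0.43 for Reg4 (adjusted p = 0.911). With the goblet markers neither lectin was called, at -1.91 for Reg3g (adjusted p = 0.104) and -1.98 for Reg3b (adjusted p = 0.151), in a fit that called 0.142% of all genes. DESeq2 called Reg3g (adjusted p = 0.00364) and not Reg3b (adjusted p = 0.0806). Without SM6 old library 3 and Lgr5-GFP young library 1, it was -2.38 for Reg3g (adjusted p = 0.000864) and -2.31 for Reg3b (adjusted p = 0.0156), both called, and -0.76 for Reg4 (adjusted p = 0.270). Without Lgr5-GFP old library 1 or library 3, Reg3b was not called, at -1.87 (adjusted p = 0.127) and -1.93 (adjusted p = 0.0944), while Reg3g was called in all 12 fits that left out 1 library, at an adjusted p of at most 0.0334. Without Lgr5-GFP old library 2, which had the highest Reg3b, Reg3g and enterocyte marker levels of its group, the log2 change was -3.26 for Reg3b (adjusted p = 0.000312) and -3.50 for Reg3g (adjusted p = 0.000332).

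The age effects of the 2 isolations were then compared directly as an interaction, the age effect in Lgr5-GFP minus that in SM6. The difference was -4.13 ± 0.59 for Reg3g (SE, log2 scale, edgeR quasi-likelihood test, adjusted p = 0.00124), -3.58 ± 0.61 for Reg3b (adjusted p = 0.00554) and -3.56 ± 0.70 for Reg4 (adjusted p = 0.0128). It was -2.18 ± 0.59 for Reg1 (adjusted p = 0.114) and -0.97 ± 0.75 for Reg3a (adjusted p = 0.748), neither of which was called. By p-value Reg3g ranked 4th and Reg3b 10th of all genes. The 3 calls among 5 members stood beside 0.658% called over all genes, and the median of the members was -3.56 against 0.00. The interaction uses the same 12 libraries as the 2 age effects and is not further evidence for them.

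**Figure D3:**
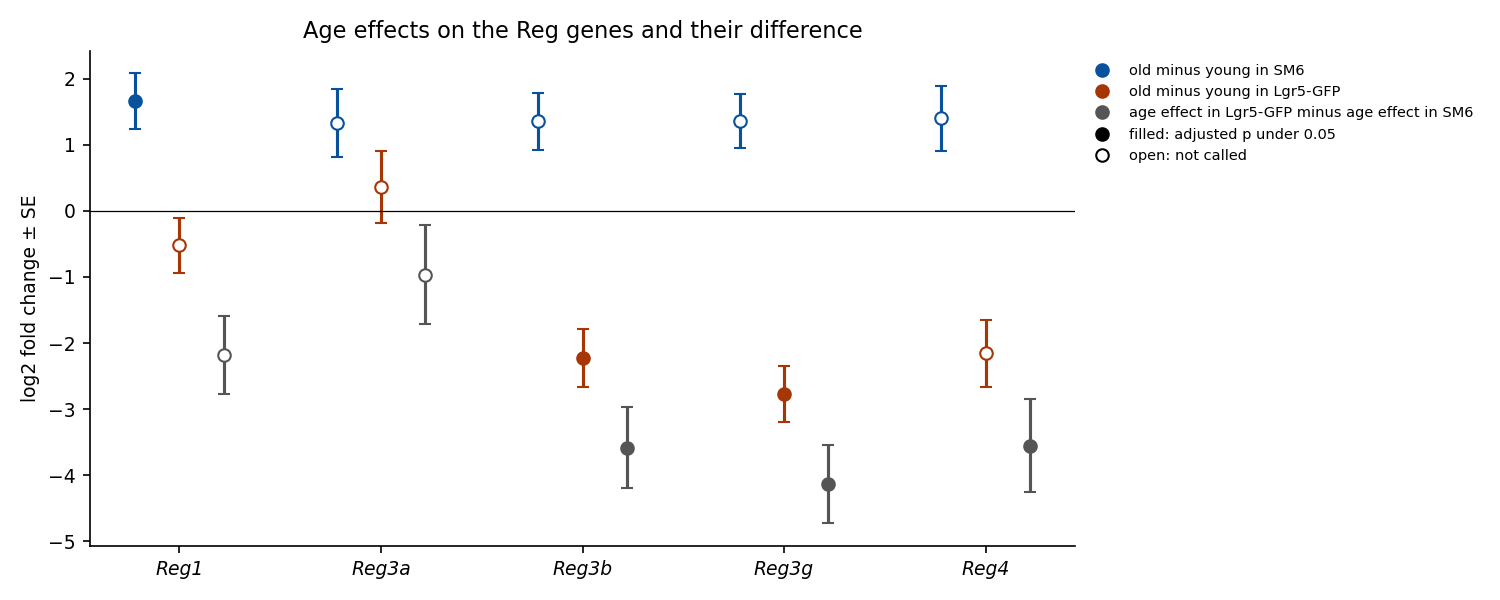
Log2 fold change ± SE (y axis) of each Reg gene (x axis) for old minus young in SM6 (blue), old minus young in Lgr5-GFP (brown) and the difference of both age effects (grey), with filled points at an adjusted p under 0.05. All 5 SM6 values lie above 0, the Lgr5-GFP values of Reg3b, Reg3g and Reg4 lie below -2, and the difference was called for these 3 genes.

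Adding the marker levels of other cell types to the fit changed the difference to an unequal degree among the members. With the Paneth markers as a covariate, the interaction of Reg3b was -3.34 (adjusted p = 0.0306) and that of Reg3g -2.37 (adjusted p = 0.0978), while that of Reg4 was -0.61 (adjusted p = 0.892). That of Reg1 was then -3.43 (adjusted p = 0.00515). The Paneth markers had moved in the same directions, since all 11 that were tested were called lower in the interaction, with a median of -5.13. Other fits called fewer of these 11, namely 7 with DESeq2, 5 with limma voom, 2 without SM6 old library 3 and Lgr5-GFP young library 1, and 0 with robust estimation, and in each of them all 11 had an unadjusted p under 0.05. Of the enterocyte markers 6 of 11 were called lower in the interaction, with a median of -2.44, and of the goblet markers 3 of 8, namely Muc2, Agr2 and Spink4. The goblet marker sums did not overlap between SM6 young and SM6 old, and with them as a covariate no member was called (edgeR quasi-likelihood test), at -2.93 for Reg3b (adjusted p = 0.812), -2.10 for Reg3g (adjusted p = 0.907) and 0.48 for Reg4 (adjusted p = 0.997). That fit called 1 gene of the whole table (0.00748%), so the loss of calls was not particular to the Reg genes. With the enterocyte markers the values were -3.55, -4.19 and -3.54 in the same order, all called. Whether such cells supplied the Reg transcripts was not tested. Robust estimation of the spread called none of the 5 members in any comparison, although 4 had an unadjusted p under 0.05 in the interaction, also without robust estimation, where 9.43% of all genes had one. In the robust fit of the interaction the adjusted p was 0.175 for Reg3g and 0.301 for Reg3b. DESeq2 called 3 members in the interaction and limma voom 2, since Reg4 was then at -2.79 (adjusted p = 0.0581). Reg3b and Reg3g were called in the interaction in all 12 fits that left out 1 library, and Reg4 in 9, the exceptions being SM6 young library 2 (adjusted p = 0.0533), Lgr5-GFP young library 1 (adjusted p = 0.0505) and Lgr5-GFP old library 1 (adjusted p = 0.0515). For Reg4 the difference was -2.17 without Lgr5-GFP young library 1 and -2.87 without SM6 old library 3, and without both of these libraries -1.48, which was not called (adjusted p = 0.0633), while Reg1 was then called at -2.74 (adjusted p = 0.0167). For Reg3b it was -4.62 without Lgr5-GFP old library 2 and -4.20 without SM6 young library 1. For Reg3g it was -4.86 without Lgr5-GFP old library 2 and -3.46 without SM6 old library 3.

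**Figure D4:**
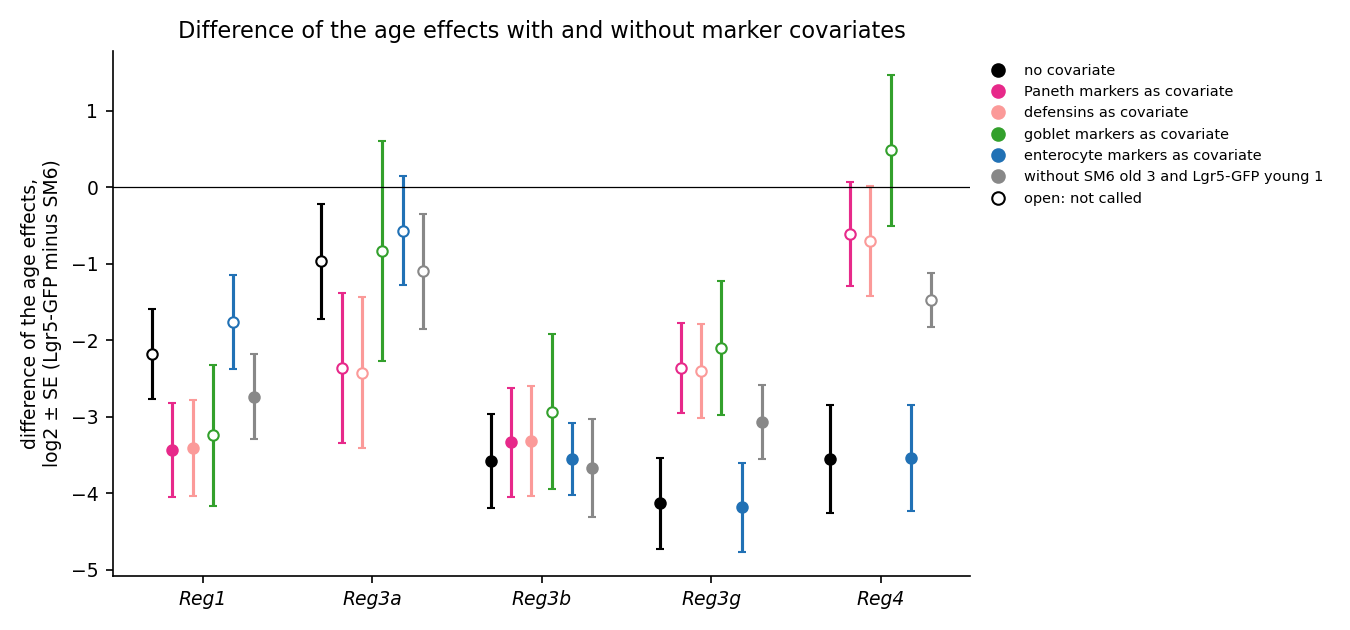
Difference of the age effects (log2 ± SE, y axis) for each Reg gene (x axis) in the fit without a covariate, with the summed markers of another cell type as covariate, and without SM6 old library 3 and Lgr5-GFP young library 1. Filled points have an adjusted p under 0.05. Reg3b lay between -2.93 and -3.67 in all 6 fits, whereas Reg4 ran from -3.56 to 0.48.

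Between the isolations, young ISCs differed in the bactericidal lectins and old ISCs in Reg4. These comparisons share their libraries with the age effects. At 2 months Reg3g was 5.79-fold higher in Lgr5-GFP than in SM6, a log2 difference of 2.53 ± 0.42 (SE, edgeR quasi-likelihood test, adjusted p = 0.0081), and Reg3b was 4.72-fold higher, at 2.24 ± 0.44 (adjusted p = 0.0393). These were 2 of the 12 genes called over the whole table, which is 0.0898% of those tested. DESeq2 called Reg3g and not Reg3b, with 0.165% of all genes called. Robust estimation called neither, with 0.12% of all genes called. Reg4 had a difference of 1.08 ± 0.48 (adjusted p = 0.647), Reg1 of 1.03 ± 0.42 (adjusted p = 0.590) and Reg3a of -0.08 ± 0.54 (adjusted p = 0.985). The groups did not overlap for Reg1, Reg3b and Reg3g, and for 13.7% of all genes. The median over the members was 1.08, and over all genes -0.01. The Paneth markers were higher in the same libraries, with a median of 2.37 over the 11 tested, all at an unadjusted p under 0.05 in the edgeR fit, and none was called by the edgeR quasi-likelihood test, DESeq2 or limma voom. With them as a covariate the difference was 1.72 for Reg3g (adjusted p = 0.0463) and 2.13 for Reg3b (adjusted p = 0.0425), and with the defensins it was 1.72 for Reg3g, which was not called (adjusted p = 0.0675). Without SM6 young library 2 or library 3 neither lectin was called, at an adjusted p of 0.0943 and 0.0803 for Reg3g and of 0.301 and 0.219 for Reg3b. Without Lgr5-GFP young library 2 or library 3, Reg3b was not called (adjusted p = 0.128 and 0.0804), and without SM6 young library 1 its difference was 2.86 (adjusted p = 0.0118).

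At 22 months the fitted mean of every member was lower in Lgr5-GFP than in SM6. Reg4 was 5.56-fold lower, a log2 difference of -2.48 ± 0.51 (SE, edgeR quasi-likelihood test, adjusted p = 0.0173), with no overlap between the groups. The others were not called, at -1.60 ± 0.42 for Reg3g (adjusted p = 0.0844), -1.34 ± 0.43 for Reg3b (adjusted p = 0.230), -1.15 ± 0.42 for Reg1 (adjusted p = 0.331) and -1.05 ± 0.52 for Reg3a (adjusted p = 0.541). The count of 1 called among 5 stood beside 0.718% of all genes, and 1 of 5 without overlap beside 13.5%. The median was -1.34 over the members and 0.00 over all genes. DESeq2 did not call Reg4 (adjusted p = 0.0669). With the Paneth markers as a covariate its difference was -1.16 (adjusted p = 0.288), while Reg1 was then called at -1.79 (adjusted p = 0.0198), and with the goblet markers it was 0.77 (adjusted p = 1.0), in a fit that called 0.00748% of all genes. Markers of other secretory cells were lower in the same libraries, with 6 of 8 goblet and 7 of 11 enteroendocrine markers called lower at 22 months, and neither sum overlapped between the groups. Their part in the result was not tested. The call of Reg4 was also lost without SM6 old library 3, at -1.77 (adjusted p = 0.102), and without Lgr5-GFP old library 1 (adjusted p = 0.132) or library 3 (adjusted p = 0.101). It held without both SM6 old library 3 and Lgr5-GFP young library 1, at -1.77 (adjusted p = 0.000127). With the enterocyte markers as a covariate it also held, at -2.42 (adjusted p = 0.0206). Of the 27 alternatives 19 called Reg4.

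Across the 12 libraries the members fell into unlike patterns. Pearson correlations of log2 CPM are given as descriptions, since the libraries fall into 4 groups and differ in sequencing depth. The value after subtracting each group mean follows. Reg3b and Reg3g had r = 0.921 (Spearman 0.930, and 0.723 within groups), the highest of the 10 pairs. Reg3g and Reg4 had r = 0.661 and Reg3b and Reg4 r = 0.463, which were 0.656 and 0.0546 within groups. Reg1 and Reg4 had r = 0.000496, and -0.664 within groups.

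The genes most like each member were taken from 8327 genes with a mean of at least 10 CPM. For Reg3b they were Reg3g, Sec16a (r = 0.849) and Srprb (r = 0.829), of which Sec16a acts at exit sites of the endoplasmic reticulum and Srprb is a subunit of the signal recognition particle receptor. For Reg3g they were Reg3b, Mptx2 (r = 0.916), a mucosal pentraxin, and Arpc5 (r = 0.875), a subunit of the actin-nucleating Arp2/3 complex. For Reg4 they were Spink4 (r = 0.952), a goblet cell marker, Ccl6 (r = 0.938), a chemokine, and Defa22 (r = 0.935), a Paneth cell defensin. For Reg1 they were Gng12 (r = 0.864), a G protein subunit, Alpi (r = 0.861), the alkaline phosphatase of the enterocyte brush border, and Slc51a (r = 0.857), a subunit of the bile acid exporter of enterocytes. For Reg3a, which had 5 to 40 counts in a library, they included Iah1 (r = 0.882) and Maea (r = 0.827), a ubiquitin ligase subunit. Within groups, r with Reg3b was 0.774 for Sec16a and 0.585 for Srprb, and r with Reg3g was 0.787 for Mptx2 and 0.628 for Arpc5. For the genes named with Reg4, Reg1 and Reg3a it was 0.786 to 0.956 within groups.

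The members also differed in how they went with the marker sums. Against the Paneth marker sum, r was 0.803 for Reg3g, 0.800 for Reg4, 0.626 for Reg3b, 0.0722 for Reg1 and -0.248 for Reg3a. Within groups these were 0.632, 0.764, 0.139, -0.516 and -0.604. Against the goblet marker sum, Reg4 had r = 0.837 (0.687 within groups), and against the enteroendocrine marker sum r = 0.648 (0.709 within groups). For Reg3g these were 0.494 (0.494 within groups) and 0.112 (0.651 within groups). The remaining members lay at 0.347 to 0.447 and at 0.0306 to 0.249, and within groups at -0.238 to 0.153 and at -0.574 to 0.157. Against the enterocyte marker sum, r was 0.697 for Reg3a, 0.409 for Reg1 and 0.260 for Reg3b, which were 0.599, 0.230 and 0.677 within groups.

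**Figure D5:**
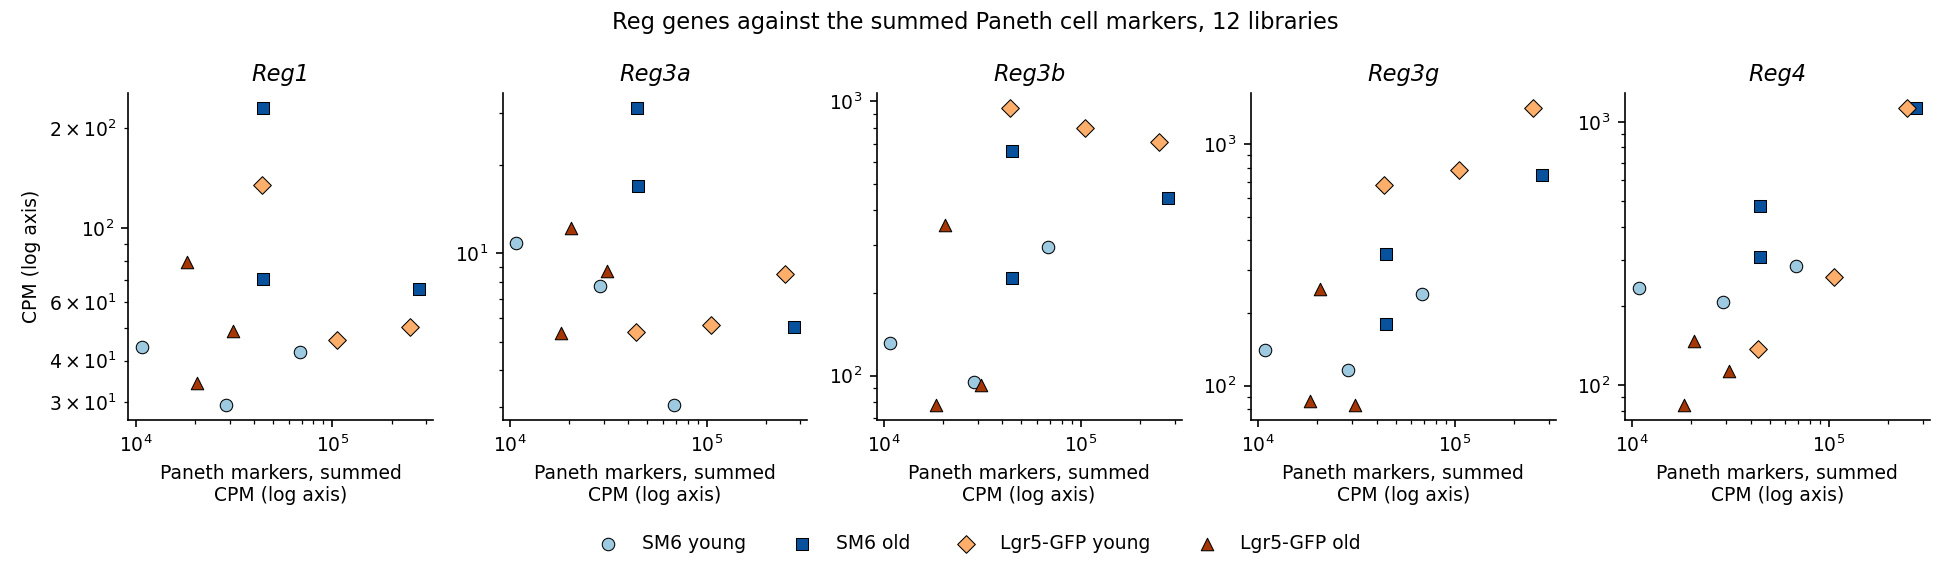
Level of each Reg gene (CPM, log axis) against the summed CPM of 12 Paneth cell markers (log axis) in the 12 libraries, by group. Reg3g (r = 0.803) and Reg4 (r = 0.800) were higher where the markers were, and in both libraries on the far right Reg4 reached its highest levels, whereas Reg1 (r = 0.0722) peaked at an intermediate marker level.

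Genes of the pathways known to act on the Reg lectins are given next, in lists so short that, at 0.0898% to 2.42% of all genes called per comparison, a count of 0 or 1 does not set them apart from other genes. Extl3, which has been described as a binding partner of Reg proteins at the cell surface, had log2 changes with age of -0.09 ± 0.32 in SM6 (SE, edgeR quasi-likelihood test, adjusted p = 0.957) and -0.02 ± 0.30 in Lgr5-GFP (adjusted p = 0.997). Of 15 genes of interleukin-22 and STAT3 signalling, 12 were tested, and none was called in any of the 5 comparisons by the edgeR quasi-likelihood test, DESeq2 or limma voom, with at most 1 at an unadjusted p under 0.05. Of 20 genes of Toll-like and NOD receptor signalling, 16 were tested, and none was called by these tools either, with at most 2 at an unadjusted p under 0.05. The medians of these 2 lists in the age comparisons lay between -0.17 and 0.16 on the log2 scale, also with genes near 0 at their bound. Among 16 other epithelial genes that respond to interleukin-22, 8 were tested, and 1 was called in 1 comparison. This was Duox2, an oxidase that makes hydrogen peroxide at the mucosal surface, which rose by 1.71 ± 0.45 in SM6 (adjusted p = 0.0435). Limma voom called none of the 8 in any comparison. The median of these 8 was 0.13 with age in SM6 and -0.98 in Lgr5-GFP, where all 8 had a lower fitted mean, and with genes near 0 at their bound it was 0.48 and -0.07. At an unadjusted p under 0.05 in the edgeR fit were 4 of the 8 in SM6, 2 in Lgr5-GFP, 4 in the interaction, 4 at 2 months and 1 at 22 months, where 13.1%, 9.79%, 9.43%, 7.47% and 9.40% of all genes were in the same order.

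Other secreted antimicrobial proteins and lectins, a list of 14 genes, are given for comparison. In SM6 13 of 14 had a higher fitted mean in old ISCs, with a median of 1.77, and Zg16, a goblet cell lectin, was called at 1.79 ± 0.43 (adjusted p = 0.0219), where 2.42% of all genes were called. The count of 1 depended on the tool, since limma voom called 6, the likelihood ratio test 4, DESeq2 2 and robust estimation none. These fits called 3.45%, 3.94%, 2.95% and 2.55% of all genes. At an unadjusted p under 0.05 were 6 in the robust fit. In the edgeR quasi-likelihood fit 12 of the 14 were, and 13.1% of all genes. Without SM6 old library 3 and Lgr5-GFP young library 1, 6 of the 13 tested were called, and 3.29% of all genes. In Lgr5-GFP 12 of 14 had a lower fitted mean in old ISCs, with a median of -1.55. The median was -0.71 with genes near 0 at their bound of 3 counts a library. Mptx2 was called at -4.78 ± 0.89 (edgeR quasi-likelihood test, adjusted p = 0.0106), where 0.471% of all genes were called. DESeq2 and limma voom called 1 each there, the likelihood ratio test 5 and robust estimation none, with 7 at an unadjusted p under 0.05. Those fits called 0.583%, 0.546%, 1.29% and 0.337% of all genes. In the interaction 5 of 14 were called, all lower, where 0.658% of all genes were called. DESeq2 called 4 of the 14, limma voom 2, the likelihood ratio test 6 and robust estimation none, with 9 at an unadjusted p under 0.05 in the robust fit. The shares of all genes were 0.696%, 0.501%, 1.18% and 0.374%. The 5 called by the edgeR quasi-likelihood test included Mptx2 at -6.95 ± 1.18 (adjusted p = 0.00554) and the ribonuclease Ang4 at -5.71 ± 1.04 (adjusted p = 0.00852). Also among them were the lectin Itln1 at -5.44 ± 1.05 (adjusted p = 0.0122) and lysozyme, Lyz1, at -5.13 ± 1.01 (adjusted p = 0.0128). Ang4, Itln1 and Lyz1 are also on the Paneth marker list, and Zg16 is on the goblet marker list. In Lgr5-GFP against SM6 at 22 months 4 were called lower, namely Zg16, Lgals3, Ang4 and Mptx2, where 0.718% of all genes were called. DESeq2 called 2 there, limma voom 2, robust estimation 1 and the likelihood ratio test 8, in fits that called 0.86%, 0.643%, 0.613% and 1.52% of all genes. At 2 months none of the 14 was called by the edgeR quasi-likelihood test or DESeq2, with 8 and 6 at an unadjusted p under 0.05, and 1 by limma voom. In the edgeR fit 7.47% of all genes had such a p, and limma voom called 0.165% of all genes.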

How the data were processed

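The authors aligned the reads to GRCm38 with STAR 2.4.2a and summed them over each gene using featureCounts. The deposited values are those counts, unscaled. A molecular identifier was added to each read, but whether duplicates were collapsed is not stated in the sources used here. Intervals and floors cover at most counting error, and are too narrow even for it if duplicates were kept. Each library came from 1 mouse and totals had a median of 1424340 counts, which leaves the lowest member, Reg3a, at 5 to 40 counts.

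Genes with more than 5 reads and at least 1 CPM in at least 1 library were kept, as in the study, which left 13368. The 12 libraries entered 1 quasi-likelihood fit in edgeR 4.0.16 (R 4.3.3) with TMM scaling and a coefficient for each group. Tests were two-sided, p-values were adjusted over all 13368 genes by Benjamini-Hochberg, and a gene was called under 0.05. DESeq2 1.42.0, limma 3.58.1 (voom), other scalings, filters and samples were alternatives, and the steps were tested on simulated data. Levels are CPM on TMM-scaled totals, and correlations use log2 CPM with a prior count of 2. Exon lengths and positions came from GENCODE vM21 on the same build. The members, the lists and the comparisons were chosen with earlier results of these data known. The members and Extl3 were to be named with their values, from each other list up to 4 called genes per comparison by the smallest adjusted p, and for each member the 3 genes with the highest Pearson correlation. A gene that the last rule names for Reg3a is not reported here.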

Additional observations from a re-analysis of the deposited data

Results flagged for a closer look

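The age effects of the 2 isolations were called different for 3 of the 5 Reg genes in the interaction test (edgeR quasi-likelihood test). Of all genes 0.658% were called. The difference, the age effect in Lgr5-GFP minus that in SM6 on the log2 scale, was -4.13 for Reg3g (adjusted p = 0.00124), -3.58 for Reg3b (adjusted p = 0.00554) and -3.56 for Reg4 (adjusted p = 0.0128). Robust estimation called none of the 5 members, with an adjusted p of 0.175 for Reg3g and 0.301 for Reg3b. With the Paneth markers as a covariate Reg4 was at -0.61 (edgeR quasi-likelihood test, adjusted p = 0.892). All 11 Paneth markers tested were also called lower in the interaction. With 3 libraries a group, no test for a library far from the others was run.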

How the results depend on the processing

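The number of the 5 members called was recomputed under each alternative. In SM6 it was 1 in the age comparison and became 4 with no filter beyond 1 count and with only the libraries compared, 2 with limma voom, 2 with the likelihood ratio test, 0 with DESeq2 and 0 with robust estimation. The share called over all genes was 2.42% in the main fit, and in these fits 2.55%, 2.94%, 3.45%, 3.94%, 2.95% and 2.55%. In Lgr5-GFP the count of members was 2 and became 1 with DESeq2, 0 with robust estimation and 1 with the Paneth covariate. It became 3 with library totals alone, with no filter, with 1 CPM in 3 libraries, with the likelihood ratio test and with only the libraries compared. Reg4 was the further call in these 3-member counts, and was called in 9 of the 27 alternatives of this comparison. All genes were called at 0.471% in the main fit, and at 0.583%, 0.337%, 0.292%, 0.726%, 1.16%, 0.626%, 1.29% and 0.63% in the same order. In the interaction the count of members was 3 and became 0 with robust estimation, 2 with limma voom, 2 with the Paneth covariate (Reg3b and Reg1), and 4 with no filter and with the likelihood ratio test. Among all genes the interaction called 0.658%, and in these fits 0.374%, 0.501%, 0.269%, 0.948% and 1.18%. At 2 months the count of members was 2 and became 4 with no filter, 1 with DESeq2 and 0 with robust estimation. The main fit and these fits called 0.0898%, 0.529%, 0.165% and 0.12% of all genes. At 22 months the count of members was 1 and became 4 with no filter, 0 with DESeq2, 2 with limma voom, 0 with robust estimation and 2 with the likelihood ratio test. For all genes the share was 0.718%, and then 0.965%, 0.86%, 0.643%, 0.613% and 1.52%. The alternatives that follow were added after seeing the data. Without both libraries of highest Paneth marker sum the SM6 count was 2, and the 3 calls in the interaction held Reg1 in place of Reg4. That fit called 3.29% of all genes in SM6 and 0.458% in the interaction. The defensin covariate gave 1 in Lgr5-GFP, 2 in the interaction (Reg3b and Reg1) and 1 at 2 months, the goblet covariate 0 in SM6, 0 in Lgr5-GFP, 0 in the interaction and 0 at 22 months, and the enterocyte covariate 0 in SM6 and 2 at 22 months. The shares of all genes in this order were 0.247%, 0.239%, 0.127%, 0.015%, 0.142%, 0.00748%, 0.00748%, 2.12% and 0.756%. Leaving out 1 library at a time gave 0 to 3 calls in SM6, 1 to 3 in Lgr5-GFP, 2 to 4 in the interaction, 0 to 2 at 2 months and 0 to 3 at 22 months. Over all genes the shares were 1.09% to 3.03%, 0.195% to 0.848%, 0.317% to 0.744%, 0.0449% to 0.293% and 0.3% to 0.927%. Counts that stayed at 1 held another gene in 3 fits, with Reg1 in place of Reg4 at 22 months with the Paneth and defensin covariates, and Reg3b in place of Reg1 in SM6 without SM6 young replicate 1. The cause of these changes was not tested.

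The replicate numbers did not pair the libraries (correlations of deviations from -0.044 to 0.048). With the numbers as a block, Reg1 was also called in the interaction, at -2.11 (adjusted p = 0.0463), which made 4 calls, and the counts of 1, 2, 2 and 1 in the other comparisons were the same. The interaction of the block fit called 0.778% of all genes.

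Signs changed only for values that were not called, apart from Reg4 with the goblet covariate (0.48 in the interaction, 0.77 at 22 months, and -0.67 for the uncalled SM6 age effect). For Reg1 the Lgr5-GFP age effect ran from -0.93 to 0.17 when 1 library was left out, and was positive only without Lgr5-GFP young replicate 3. For Reg3a it was -0.53 with the Paneth, -0.59 with the defensin and -0.21 with the enterocyte covariate, and its difference at 2 months was 0.0060 with limma voom, 0.76 and 0.81 with the Paneth and defensin covariates, and -0.45 to 0.29 when 1 library was left out. For Reg4 the difference at 2 months was -0.55 and -0.51 with these covariates, -0.31 to 1.53 when 1 library was left out, the lowest without Lgr5-GFP young replicate 1, and -0.29 without both libraries. For Reg3g the difference at 22 months was 0.25 with the goblet covariate. Group mean levels moved by less than 1 SD under both other scalings. Depth limits Reg3a most.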

Other observations

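The ratio of Reg3g to Reg3b counts within a library, which no scaling of totals can change, was 0.535 to 1.68 in SM6 old and 0.721 to 1.97 in Lgr5-GFP young, and 0.816 to 1.23 in SM6 young and 0.712 to 1.10 in Lgr5-GFP old. The highest ratios, 1.97 and 1.68, came from Lgr5-GFP young library 1 and SM6 old library 3, which also had the highest Paneth marker sums. The ratio was not tested.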
